A study of Ophiorrhiza pumila with 6 samples.

Results

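Enzymes of the methylerythritol phosphate (MEP) pathway were followed in hairy roots of *Ophiorrhiza pumila* through 10 contigs of a *de novo* assembly. The members were the contigs that the study listed, by similarity to *Catharanthus roseus* enzymes, for the 7 enzymes DXS (4 contigs), DXR, CMS, CMK, MECS, HDS and HDR. They are 10 of 59855 contigs in all, and all 10 were among the 33315 contigs that passed the count filter. A pair of contigs listed for DXR but annotated as a cyclin-dependent kinase was left out.

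The groups were 3 RNAi constructs, each carried by 2 hairy root lines harvested at 3 weeks of age: ERF2i (lines ERF2i-2 and ERF2i-3, construct against *OpERF2*), ERF1i (ERF1i-7 and ERF1i-19, against *OpERF1*) and the control GUSi (GUSi-9 and GUSi-10, against the β-glucuronidase reporter gene). *OpERF1* and *OpERF2* encode AP2/ERF transcription factors. All lines, the control included, were roots transformed by *Agrobacterium rhizogenes* with a binary RNAi vector in which the 35S promoter drives the hairpin, so there was no untransformed root. Each line is 1 transformation event with 1 library, so n = 2 lines for each construct. The p-values rest on the spread between lines and no other, pooled over the 3 constructs and drawn toward that of other contigs. The deposited sample labels number the 2 ERF2i lines the other way round from the study's own listing and from the annotation table, whose FPKM equal the other line's at all 59855 contigs (within 0.005). The sample labels are used here, and no value for the ERF2i group depends on this choice.

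The MEP pathway works in plastids and makes the C5 units of isoprenoids, isopentenyl and dimethylallyl diphosphate, from pyruvate and glyceraldehyde 3-phosphate. DXS joins these to deoxyxylulose phosphate and is known as a main control point of flux. DXR converts that product to MEP and is the first enzyme committed to the pathway. CMS adds a cytidyl group, CMK phosphorylates the product, MECS closes the cyclodiphosphate, HDS opens it, and HDR releases the C5 units. In *O. pumila* these units supply the terpenoid portion of camptothecin, an alkaloid built from secologanin and tryptamine, and the comparison asked whether silencing either factor changed the enzymes that feed it.

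The libraries held 11517610 to 13199946 expected counts. The TMM scaling factors were 0.918 and 0.909 in ERF2i-2 and ERF2i-3, against 1.02 to 1.08 in the other 4 libraries, and without that scaling the median log2 difference over all contigs was −0.24 in ERF2i against GUSi, −0.07 in ERF1i against GUSi and −0.17 in ERF2i against ERF1i. Of the contigs called, the share that were higher was 57.2%, 65.4% and 54.1% with scaling in these 3 comparisons, and 28.6%, 53.5% and 31.9% without it. The *OpERF1* contig (c15284_g1_i1) had 4.06 and 22.0 CPM in ERF1i-7 and ERF1i-19, against 228 and 150 CPM in GUSi-9 and GUSi-10. It had 905 and 766 CPM in ERF2i-2 and ERF2i-3, above the same controls (log2 difference 2.14, SE 0.59, adjusted p = 0.0407), so the ERF2i lines also carried more *OpERF1* RNA, and its part in the MEP values was not tested. The *OpERF2* contig (c17706_g2_i1) had only 12 and 55 counts in ERF2i-2 and ERF2i-3, against 63 and 35 counts in GUSi-9 and GUSi-10, with a log2 difference of −0.15 (SE 0.73, adjusted p = 0.903), so the library labelled ERF2i-3 was not below the control and the contig does not check the ERF2i label. The counts of a target contig can include reads from the hairpin itself. Each direction given for ERF2i rests on the label of these libraries.

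Most of the enzymes were represented by 1 long contig. The main DXS contig (c29996_g1_i1, 2986 bp) aligned to a *C. roseus* DXS over 717 residues, and the HDS contig (c23444_g2_i1, 2902 bp) to a *Rauvolfia verticillata* enzyme over 740 residues. The DXR contig (c33486_g7_i1, 1019 bp) aligned over 244 residues, so its counts come from part of the transcript. The other 3 DXS contigs were shorter: c30018_g1_i1 (1788 bp, best hit DXS1 of *Mitragyna speciosa*), c29282_g1_i1 (1235 bp, a DXS of *Antirrhinum majus*) and c29282_g2_i1 (1205 bp, DXS2 of *M. speciosa*). The last pair belongs to the same assembly component and aligned over 356 and 387 residues, so they may be pieces of 1 transcript. The CMS contig (c23841_g1_i1) is described as a cyclodiphosphate enzyme, but its best hit is a MEP cytidyltransferase, the CMS reaction. CMK (c28782_g1_i1), MECS (c17510_g1_i1) and HDR (c17511_g1_i1) aligned over 398, 246 and 465 residues.

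In the hairy roots labelled ERF2i, DXR fell to 0.486 times the control level, the kinase CMK fell by less, and no MEP enzyme rose. The main DXS contig at the entry and HDR at the exit of the pathway did not pass the test in either direction. In ERF1i no MEP enzyme passed the test. Directly set against ERF1i, ERF2i was again lower in DXR and CMK.

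In ERF2i against GUSi, 2 of 10 members fell and 0 rose at an adjusted p under 0.05 (edgeR's quasi-likelihood test, Benjamini-Hochberg adjustment over all contigs). Over all contigs 9.88% fell and 13.2% rose, 23.1% in either direction. The median log2 difference of the members was −0.31, against −0.01 over all contigs tested. The lowest was −1.04 for DXR and the highest 0.22 for CMS. Both ERF2i libraries lay below both GUSi libraries for 6 of 10 members and above them for 2, where this held for 34.2% and 34.0% of all contigs. The groups did not overlap for 8 of 10 members, where 68.2% of all contigs showed such a gap with 2 lines for each construct. Without scaling 5 members fell (DXR, CMK, HDS, MECS and c29282_g1_i1) at a members' median of −0.54, and 0 were called without ERF2i-2.

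**Figure D1:**
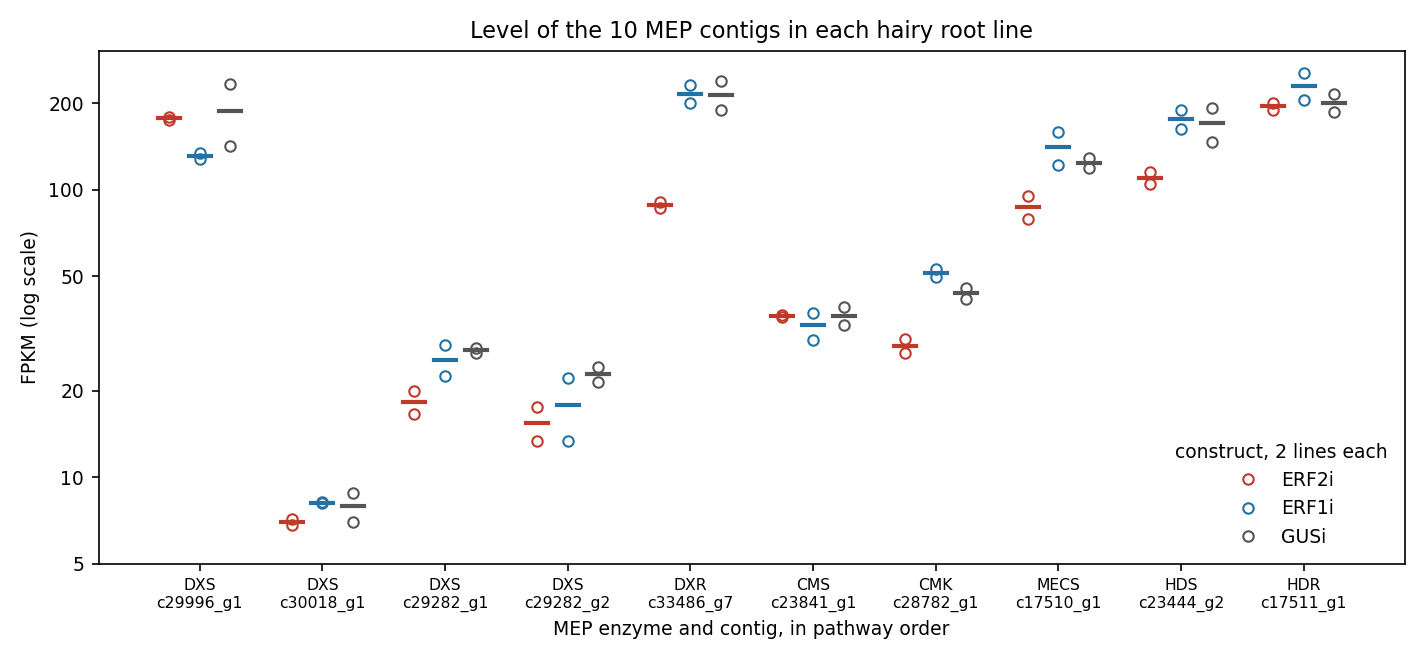
FPKM (log scale) of the 10 MEP contigs in pathway order. Each circle is 1 line and each bar the mean of 2 lines, with ERF2i, ERF1i and GUSi side by side. The DXR circles of ERF2i sit at 86.5 and 90.6 FPKM, below all other lines (189 to 238), while the GUSi circles of the main DXS contig lie at 233 and 142 on either side of the ERF2i ones.

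DXR, the first committed enzyme, had 840 and 897 counts in ERF2i-2 and ERF2i-3, 2181 and 2408 in ERF1i-7 and ERF1i-19, and 2601 and 2108 in GUSi-9 and GUSi-10. Scaled to library size and TMM factor, these were 79.7 and 84.6 CPM in ERF2i, 167 and 192 CPM in ERF1i, and 188 and 150 CPM in GUSi. The ERF2i lines lay far below the other 4 and close to each other, whereas the ERF1i and GUSi ranges overlapped. The level in ERF2i was 0.486 times that in GUSi (log2 difference −1.04, SE 0.14, 95% interval −1.38 to −0.71, adjusted p = 0.00357). Each line showed it, with log2 differences from the GUSi mean of −1.08 in ERF2i-2 and −0.99 in ERF2i-3. The call held in 14 of 15 alternative analyses; it was lost without ERF2i-2, where the difference was −1.01 and adjusted p = 0.0539, with ERF2i then resting on 1 line.

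Contigs that share the assembly component of DXR were read beside it. The kinase contigs c33486_g6_i1 and c33486_g6_i2, left out of the members, had 265 and 246, and 254 and 236 CPM in ERF2i, against 239 and 213, and 237 and 208 CPM in GUSi. The ERF2i lines lay above the GUSi lines for the first of them and overlapped with GUSi-9 for the second. A pair of short DXR pieces, c33486_g1_i3 and c33486_g1_i5, aligned over 36 residues each and had 35 to 108 counts in a library. Their log2 differences in ERF2i against GUSi were −0.35 (adjusted p = 0.415) and −0.44 (adjusted p = 0.234), and neither passed the test.

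CMK, the cytidyl-erythritol kinase, had 51.6 and 58.7 CPM in ERF2i-2 and ERF2i-3, 86.1 and 91.1 CPM in ERF1i-7 and ERF1i-19, and 74.7 and 68.8 CPM in GUSi-9 and GUSi-10. The 3 constructs did not overlap, with ERF2i lowest and ERF1i highest. ERF2i was 0.769 times GUSi (log2 difference −0.38, SE 0.11, adjusted p = 0.0472). This call stood at the threshold: it was lost with DESeq2 (adjusted p = 0.104), without a low-count filter (0.082), and without ERF2i-2 (0.261), ERF2i-3 (0.09), GUSi-9 (0.204) or GUSi-10 (0.111), while the log2 difference ranged from −0.61 to −0.30 over 15 alternatives. DXR was therefore the 1 member called by DESeq2, and the 1 member with a log2 change of at least 1.

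The remaining late enzymes did not pass the test in ERF2i against GUSi. HDS, which opens the cyclodiphosphate ring, had 312 and 348 CPM in ERF2i, 435 and 506 CPM in ERF1i, and 490 and 378 CPM in GUSi. ERF2i lay below both other groups, but the log2 difference from GUSi of −0.40 (SE 0.16, 95% interval −0.78 to −0.02) had an adjusted p of 0.12. MECS had 81.5 and 99.2 CPM in ERF2i, 114 and 147 CPM in ERF1i, and 114 and 106 CPM in GUSi, a log2 difference of −0.28 between ERF2i and GUSi (95% interval −0.65 to 0.09, adjusted p = 0.238). HDR, the last enzyme, had 457 and 492 CPM in ERF2i, 449 and 552 CPM in ERF1i, and 445 and 388 CPM in GUSi. Its ERF2i lines lay just above the GUSi lines (log2 difference 0.19, 95% interval −0.16 to 0.53, adjusted p = 0.387). CMS had 52.8 and 52.5 CPM in ERF2i, 48.5 and 38.8 CPM in ERF1i, and 41.7 and 48.4 CPM in GUSi, with a log2 difference of 0.22 in ERF2i against GUSi (95% interval −0.10 to 0.55, adjusted p = 0.278). Without scaling the differences of HDR and CMS were −0.04 and −0.01, so their sign rests on the scaling.

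None of the 4 DXS contigs passed the test in ERF2i against GUSi. The main contig, c29996_g1_i1, had 538 and 556 CPM in ERF2i, 356 and 370 CPM in ERF1i, and 612 and 377 CPM in GUSi. Its 2 control lines differed more from each other than the ERF2i lines did from either. The ratio of GUSi-9 to GUSi-10 was 1.62 (95% exact binomial interval 1.57 to 1.68, for counting error only), and the log2 difference of ERF2i from GUSi was 0.15 (SE 0.21, 95% interval −0.36 to 0.65, adjusted p = 0.66). It was −0.16 without GUSi-10 and 0.54 without GUSi-9, so the direction turned with the control line, and it was −0.09 without scaling.

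The c29282 contigs were lower in both ERF2i lines, at 19.2 and 23.3 CPM in ERF2i against 27.8 and 27.1 CPM in GUSi for c29282_g1_i1, and at 15 and 20 CPM in ERF2i against 20.6 and 23.6 CPM in GUSi for c29282_g2_i1. Neither passed the test (log2 differences −0.37 and −0.34, adjusted p = 0.14 and 0.37). In ERF1i the same contigs had 30.3 and 23.2, and 22.5 and 13.5 CPM. Both were higher in ERF1i-7 than in ERF1i-19, with ratios of 1.31 and 1.67. The DXS1-like contig c30018_g1_i1 stayed between 10.6 and 13.3 CPM in all 6 libraries (log2 difference 0.05 in ERF2i against GUSi, adjusted p = 0.852).

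Among the 4 DXS contigs the main one held most of the FPKM (fragments scaled to contig length and library total) in every library. Its share was 82.7% and 80.1% in ERF2i-2 and ERF2i-3, 68.4% and 75.4% in ERF1i-7 and ERF1i-19, and 80% and 70.9% in GUSi-9 and GUSi-10. The shares of ERF2i lay above all the others, though GUSi-9 lay next to ERF2i-3. The DXS1-like contig held 3.02% to 4.55%.

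**Figure D2:**
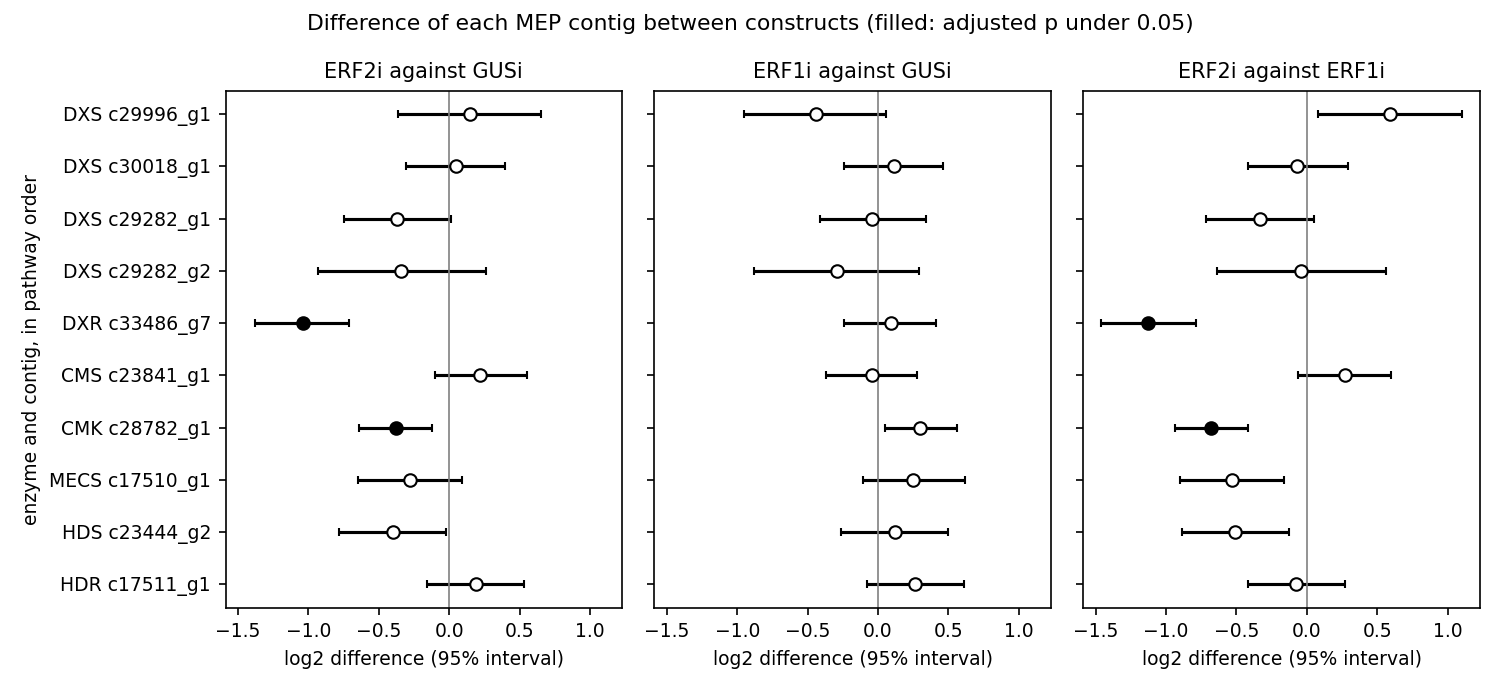
Log2 difference of each MEP contig in the 3 comparisons (ERF2i against GUSi, ERF1i against GUSi, ERF2i against ERF1i) with its 95% interval, filled where the adjusted p is under 0.05. DXR (−1.04 and −1.13) and CMK (−0.38 and −0.68) are filled in both comparisons that hold ERF2i, and no symbol is filled in ERF1i against GUSi.

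In ERF1i against GUSi, 0 of 10 members were called by edgeR and 0 by DESeq2, where 1.4% of all contigs fell and 2.65% rose (4.06% in either direction). An unadjusted p under 0.05 was reached by 1 member, CMK, at a log2 difference of 0.30 (SE 0.11, 95% interval 0.05 to 0.56, adjusted p = 0.176), where 6863 of 33315 contigs reached it. The members' median was 0.10, against 0.00 over all contigs, and they ran from −0.44 for the main DXS contig (adjusted p = 0.302) to that of CMK. DXR differed by 0.09 (95% interval −0.24 to 0.41), so a fall of the size found in ERF2i lay outside the interval. The groups did not overlap for 4 of 10 members (50.6% of all contigs), namely the main DXS contig, lower in ERF1i, and CMK, MECS and HDR, higher. Both ERF1i lines lay below both GUSi lines for 25.2% of all contigs and above them for 25.4%. No member was called in ERF1i under any of the 15 alternatives run on member values.

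ERF2i and ERF1i were also set against each other without the control. Here 2 of 10 members fell and 0 rose, where 9.01% of all contigs fell and 10.6% rose (19.6% in either direction). Both ERF2i lines lay below both ERF1i lines for 5 of 10 members and above them for 2, where this held for 31.7% and 32.4% of all contigs (64.1% in either direction). DXR was 0.458 times its ERF1i level (log2 difference −1.13, SE 0.14, adjusted p = 0.00364) and CMK 0.623 times (−0.68, SE 0.11, adjusted p = 0.00812). MECS (−0.53, adjusted p = 0.0551) and HDS (−0.51, adjusted p = 0.0667) just missed the threshold, and the main DXS contig was the other way, at 0.59 (adjusted p = 0.099). Both calls were lost without ERF2i-2 (adjusted p = 0.0577 for DXR and 0.0944 for CMK), and without ERF1i-7 MECS and HDS were called too, giving 4 members. The main DXS contig was called as higher in ERF2i in 3 of 15 alternatives, at adjusted p = 0.0314 with the GUSi libraries left out, 0.0261 without GUSi-9 and 0.0267 without GUSi-10, each with a log2 difference of 0.59 and 3 members called. The comparisons of ERF2i with GUSi and with ERF1i share the ERF2i lines, so the falls in the pair are not separate evidence.

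Per length, the order of the 5 most abundant contigs differed between constructs, with DXR and the main DXS contig moving most. In ERF2i the order by mean FPKM was HDR (195 ± 8.58, SD, n = 2), the main DXS contig (177 ± 2.73), HDS (110 ± 7.54), DXR (88.6 ± 2.91) and MECS (87.0 ± 11.3). In ERF1i it was HDR (230 ± 34.8), DXR (216 ± 22.9), HDS (175 ± 19.5), MECS (141 ± 26.2) and the main DXS contig (131 ± 4.43). In GUSi it was DXR (213 ± 34.4), HDR (200 ± 20.8), the main DXS contig (188 ± 64.4), HDS (170 ± 32.1) and MECS (124 ± 7.08). The lines of neighbours overlapped for DXR and MECS in ERF2i, for HDR and DXR and for MECS and DXS in ERF1i, and for each neighbouring pair from DXR to HDS in GUSi. CMK stood below CMS in ERF2i (28.6 and 36.4 FPKM) and above it in ERF1i (51.4 and 33.7) and in GUSi (43.6 and 36.5), and the lines of the pair did not overlap in any construct. The 3 shorter DXS contigs were the lowest in all constructs, ending with the DXS1-like contig at 6.96 FPKM in ERF2i, 8.14 in ERF1i and 7.90 in GUSi.

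Ratios within a library do not depend on the scaling between libraries. The FPKM ratio of DXR to the main DXS contig was 0.494 and 0.506 in ERF2i, 1.56 and 1.73 in ERF1i, and 1.02 and 1.33 in GUSi. The 3 constructs did not overlap. The ratio of HDR to HDS was 1.80 and 1.74 in ERF2i, 1.27 and 1.34 in ERF1i, and 1.12 and 1.26 in GUSi, again with ERF2i apart from the rest. These ratios were set up with the levels in view and carry no test.

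**Figure D3:**
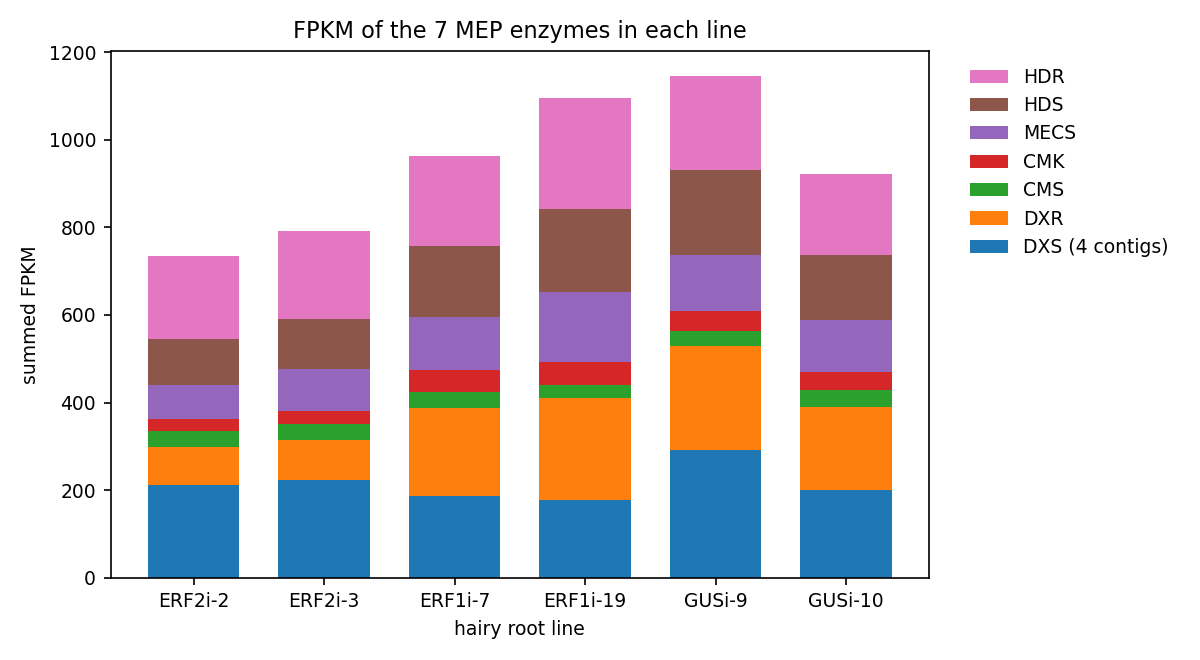
Summed FPKM of the 7 MEP enzymes in each line, stacked from DXS (4 contigs) at the bottom to HDR at the top. The ERF2i columns reach 735 and 792, the ERF1i columns 963 and 1097, and the GUSi columns 1145 and 922. The DXR layer is thinnest in both ERF2i lines.

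The summed FPKM of the members was 735 and 792 in ERF2i, 963 and 1097 in ERF1i, and 1145 and 922 in GUSi. The ERF2i sums lay below the other 4, and ERF1i and GUSi overlapped. The log2 of the ratio of mean sums was −0.44 for ERF2i over GUSi and 0.00 for ERF1i over GUSi, where the spread between lines of a construct was 0.16 (pooled SD of log2 sums). FPKM carry no correction for the difference in composition of the ERF2i libraries. Divided by the TMM factors the sums were 800 and 871 in ERF2i and 1063 and 865 in GUSi, which overlap, and the log2 ratio was −0.21.

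Sister lines also differed in single members. Between the lines of a construct, the exact interval of the CPM ratio left 1 for 6 of 10 members in ERF2i, 7 in ERF1i and 7 in GUSi, so the difference between lines exceeded counting error for most of them. In GUSi, HDS was 1.30 times higher in GUSi-9 than in GUSi-10, DXR 1.25 times and HDR 1.15 times. In ERF1i, MECS in ERF1i-7 was 0.775 times its ERF1i-19 level and HDR 0.813 times. In ERF2i the ratios of ERF2i-2 to ERF2i-3 ran from 0.75 for c29282_g2_i1 to 1.0 for CMS, and DXR stood at 0.943 (interval 0.857 to 1.04).

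Other contigs with a MEP enzyme in their description were 9 in number, 1 of them at 0 in every library (c38641_g1_i1). Of the 8 tested 0 were called in any comparison, where 4.06% to 23.1% of all contigs were. They included a DXS-like gene with 2 contigs of 12.6 to 18.9 CPM (c29855_g1_i1 and c29855_g1_i2; log2 differences of 0.10 and 0.15 in ERF2i against GUSi, adjusted p = 0.616 and 0.404) and an HDR-like contig (c5100_g1_i1) with 10.3 and 6.41 CPM in ERF2i, against 5.56 and 6.64 CPM in GUSi (log2 difference 0.45, adjusted p = 0.244). Their median log2 difference in ERF2i against GUSi was −0.05.

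Downstream of the C5 units, the study's list of contigs from isopentenyl diphosphate isomerase to strictosidine synthase held 28 contigs, all tested. It was chosen by sequence similarity and also includes tryptophan decarboxylase, which makes tryptamine. A contig listed for that enzyme (c32159_g1_i1, log2 difference 0.01 in ERF2i against GUSi) is annotated as a WD repeat protein and was kept in the counts. Of the 28 contigs 8 fell and 0 rose in ERF2i against GUSi, where 9.88% of all contigs fell and 13.2% rose. In ERF1i against GUSi 2 rose (2.65% of all contigs), and in ERF2i against ERF1i 13 fell (9.01% of all contigs). The median of the 28 in ERF2i against GUSi was −0.46, with 25 of 28 below 0. Without scaling, an alternative added after the data were seen, 15 fell and the median was −0.69. The lowest p-values belonged to 3 contigs annotated as 7-deoxyloganetic acid glucosyltransferase (c22992_g2_i1 at −1.36, c22992_g3_i1 at −1.54 and c38432_g1_i1 at −1.78, adjusted p = 0.00328, 0.00532 and 0.0222) and a secologanin synthase-like contig (c27549_g2_i1 at −1.59, adjusted p = 0.0173). The c22992 pair shares an assembly component and may be pieces of 1 transcript, and c38432_g1_i1 had only 10 and 13 counts in ERF2i. The most abundant contig of each enzyme was not called. For the glucosyltransferase this was c18473_g1_i1 (−0.09, adjusted p = 0.644), and for secologanin synthase c41889_g1_i1 (−0.45, adjusted p = 0.122). Isopentenyl diphosphate isomerase (c26317_g1_i1), which takes up the product of HDR, had 209 and 259 CPM in ERF2i and 336 and 234 CPM in GUSi (log2 difference −0.28, adjusted p = 0.39).

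The mevalonate pathway makes the same C5 units in the cytosol. The words used to match it gave 12 contigs, 5 of them described as mitochondrial hydroxymethylglutaryl enzymes, of the lyase kind where the best hit names one, which is no step of this route. No contig matched by these words was a hydroxymethylglutaryl-CoA reductase by description or best hit. The words miss spellings that part hydroxy from methylglutaryl, so this does not show the enzyme to be absent. That step of the route was not read. Of the 7 contigs not described as mitochondrial 2 rose and 2 fell in ERF2i against GUSi, with a median of −0.25 and 5 below 0. None of the 5 mitochondrial contigs was called. Over all contigs 13.2% rose and 9.88% fell. None of the 12 was called in ERF1i against GUSi. An acetyl-CoA acetyltransferase (c32654_g4_i1) and a contig described as a 3-ketoacyl thiolase (c31060_g1_i1) rose by log2 0.71 and 0.53 (adjusted p = 0.0179 and 0.0196). Both are of the kind that starts the route, the latter only by its best hit, an acetoacetyl-CoA thiolase, over 117 residues. Another acetoacetyl-CoA thiolase contig (c15787_g1_i1) aligned over 381 residues and was not called, at −0.22 (adjusted p = 0.224). Mevalonate kinase (c30261_g1_i1) and mevalonate diphosphate decarboxylase (c24143_g1_i1) each fell by 0.47 on the log2 scale (adjusted p = 0.0341 and 0.0447). Without scaling 0 of the 12 were called as risen and 6 fell, so both calls rest on the scaling, but the direction does not. In FPKM c32654_g4_i1 had 14.3 and 10.7 in ERF2i, against 8.91 and 9.02 in GUSi. For c31060_g1_i1 the FPKM were 164 and 168 in ERF2i, against 143 and 125 in GUSi.

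Plastid users of C5 units, matched by words for carotenoid, tocopherol, diterpene and geranylgeranyl enzymes, numbered 82 tested contigs. Of these 14 rose and 16 fell in ERF2i against GUSi, with a median of −0.03, where 13.2% of all contigs rose and 9.88% fell. In ERF1i against GUSi 0 of the 82 were called, where 4.06% of all contigs were. Without scaling 11 rose and 25 fell in ERF2i against GUSi. The match also took in protein prenylation enzymes outside plastids. A geranylgeranyl diphosphate synthase (c25825_g1_i1), which joins C5 units into the carotenoid and chlorophyll precursor, had 9.78 and 9.24 CPM in ERF2i, against 19.5 and 23.6 CPM in GUSi (log2 difference −1.18, adjusted p = 0.00486). A zeaxanthin epoxidase-like contig (c32690_g1_i2) had 142 and 172 CPM in ERF2i, against 65.9 and 41.6 CPM in GUSi (1.55, adjusted p = 0.0044). Both contigs of a carotenoid isomerase (c30575_g1_i3 and c30575_g1_i4) rose by 1.55 and 1.54 (adjusted p = 0.00467 and 0.00349).

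Plastid ribosome and import contigs numbered 58 tested, of which 3 rose and 9 fell in ERF2i against GUSi, with a median of −0.20. Over all contigs 13.2% rose and 9.88% fell. Without scaling 2 of the 58 rose and 21 fell. The lowest p-values belonged to ribosomal proteins in both directions. Contigs described as plastid L29 (c44918_g1_i1, 1.69) and another 50S protein (c17969_g1_i1, 0.85) rose, and L12 (c8448_g1_i1, −1.01) and L28 (c25526_g1_i1, −1.0) fell, with adjusted p = 0.000974, 0.00458, 0.00454 and 0.00657.

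**Figure D4:**
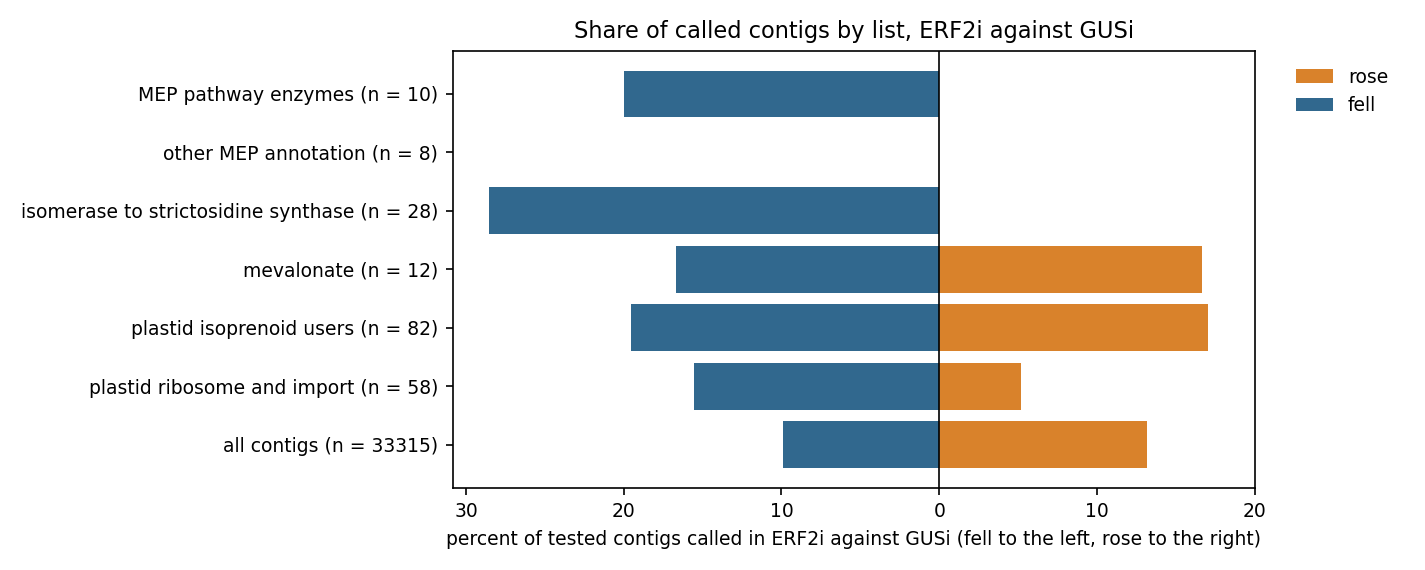
Share of tested contigs that fell (left) and rose (right) in ERF2i against GUSi for the 10 MEP members, the other lists and all 33315 contigs. The MEP members (2 of 10 fell) and the 28 contigs from the isomerase to strictosidine synthase (8 fell) have no contig that rose, whereas all contigs include 9.88% that fell and 13.2% that rose.

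Marker contigs of other tissues were read beside these values. Photosynthesis contigs, which mark green tissue, were low, with a summed 130 and 177 CPM in ERF2i, 223 and 274 CPM in ERF1i, and 140 and 126 CPM in GUSi over 102 contigs, 43 of them at 0 in every library. The sums of ERF2i and GUSi overlapped, and those of ERF1i lay above both. Of 39 tested, 4 rose and 1 fell in ERF2i against GUSi, below the shares of all contigs (13.2% and 9.88%), while 8 rose in ERF1i against GUSi, where 2.65% of all contigs rose. A chlorophyll a-b binding contig (c10086_g1_i1) had 2.28 and 4.15 CPM in ERF2i and 3.75 and 3.59 CPM in ERF1i, against 0.216 and 0.286 CPM in GUSi. The words chosen for the endodermis matched mostly scarecrow-like contigs, 44 of 49 tested, which are GRAS-family proteins named for their similarity to SCARECROW and do not by themselves mark that tissue. Of these 7 rose and 10 fell in ERF2i against GUSi, and the 4 with the lowest p moved both ways (c31160_g1_i1 at 1.01, c31160_g1_i3 at 0.95, c25339_g2_i1 at −0.84 and c32622_g1_i2 at −1.05). The 3 Casparian strip membrane protein contigs, which do mark the endodermis, ran from −0.59 to 0.09 and none was called. The other 2 tested contigs matched by these words were at −1.15 and 0.53, and 1 of them fell. The 3 *rol* contigs of the transferred bacterial DNA, which mark hairy roots, were read in ERF2i and GUSi, but the *rolB*(TR) contig (c27304_g1_i1) had 663 and 311 counts in ERF2i and 1 count in each ERF1i library, against 351 and 299 counts in GUSi. The *rolB* contig (c30113_g1_i1) had 52.2 to 121 CPM and the *rolC* contig (c36680_g1_i1) 153 to 613 CPM over the 6 libraries, and no *rol* contig was called in ERF2i against GUSi. The part of these differences in the MEP values was not tested, and in whole roots fewer cells of a type and less RNA per cell cannot be told apart.

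The 5 contigs whose pattern was most like the mean profile of the MEP members had no isoprenoid annotation. The share of such annotation among all contigs was not set beside this, so nothing is drawn from it. The measure was the Euclidean distance between centred log2 CPM over the 6 libraries, among contigs of at least 5 CPM on average and a description of known kind. The mean profile of the members was −0.23 and −0.07 in ERF2i, 0.10 and 0.08 in ERF1i, and 0.15 and −0.03 in GUSi. The nearest were a sorcin-like contig (c30087_g1_i1, distance 0.041), a 60S ribosomal protein L18a contig (c21937_g1_i1, 0.042), a 40S ribosomal protein S24 contig (c39401_g1_i1, 0.064), a mitochondrial NAD-dependent malic enzyme (c33244_g1_i1, 0.072) and an alkB homologue (c17145_g2_i1, 0.073). These were picked as the smallest distances among all contigs read, so members lying farther out was fixed by the choice and is no result. Distances of the members ran from 0.295 for the DXS1-like contig to 0.920 for the main DXS contig and 1.0 for DXR. The mean therefore describes no single enzyme well.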

How the data were processed

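RNA of 6 hairy root lines was read as strand-specific paired-end libraries. The authors placed reads on an assembled transcriptome with Bowtie 2.0 and deposited RSEM's expected counts, FPKM and TPM per contig. Expected counts were rounded (1 was not whole) and tested with edgeR 4.0.16 (TMM, filterByExpr with a minimum count of 10 and a minimum total of 15, quasi-likelihood, 3 groups in 1 fit) in R 4.3.3, with Benjamini-Hochberg adjustment over 33315 contigs and a threshold of 0.05; SE is the log2 difference over the root of F, and 95% intervals use 7 degrees of freedom. Of these degrees of freedom 3 are residual and 4 (the median) come from the spread of other contigs. DESeq2 1.42.0, limma 3.58.1 on log2(FPKM + 1) or log2(FPKM + 0.1), other scalings and filters, sums per assembly gene and each library left out were alternatives. Named contigs were all members, the 2 targets, the 2 kinase contigs and the 5 nearest in profile. The 4 with the lowest p in ERF2i against GUSi per list were also named. The isomerase after HDR, the further MEP-annotated contigs, the thiolase c15787_g1_i1 and the WD repeat contig were named after their values were seen. So were the most abundant glucosyltransferase and secologanin synthase contigs. The members and lists were chosen with earlier results of these data known. A description column and hits in the annotation table gave names. No sequence of the contigs was used here.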

Additional observations from a re-analysis of the deposited data

How the results depend on the processing

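No paired analysis was possible because the constructs share no clone numbers. In ERF2i against GUSi the count of called members, 2, was 1 with DESeq2, 1 without a low-count filter, 1 with a log2 change of at least 1, 1 for line ERF2i-2 alone, 1 for ERF2i-3 alone, 5 without scaling, and 4 by limma on log2(FPKM + 1) or log2(FPKM + 0.1); leaving out 1 library gave 0 (without ERF2i-2) to 2. In ERF2i against ERF1i it was 4 without scaling, 4 by limma with either pseudocount, 3 (2 fell, 1 rose) with only the 2 groups compared, 1 with a log2 change of at least 1, and 0 (without ERF2i-2) to 4 (without ERF1i-7) with 1 library left out. The ERF1i against GUSi count stayed at 0. FPKM and unscaled counts leave in the shift of all contigs given in the report. In ERF2i against GUSi the sign turned without scaling for the main DXS contig (−0.09), c30018_g1_i1 (−0.18), CMS (−0.01) and HDR (−0.04), and by limma with pseudocounts 1 and 0.1 for the main DXS contig (−0.04 and −0.04), c30018_g1_i1 (−0.15 and −0.17) and HDR (−0.04 and −0.04); none of these was called. Leaving out 1 library turned the sign of uncalled members, with ranges in ERF2i against GUSi of −0.16 to 0.54 for the main DXS contig and −0.11 to 0.21 for c30018_g1_i1; in ERF1i against GUSi of −0.04 to 0.28 for c30018_g1_i1, −0.25 to 0.14 for c29282_g1_i1, −0.72 to 0.02 for c29282_g2_i1, −0.07 to 0.25 for DXR, −0.22 to 0.11 for CMS and −0.06 to 0.31 for HDS; and in ERF2i against ERF1i of −0.36 to 0.37 for c29282_g2_i1 and −0.23 to 0.08 for HDR. The log2 ratio of summed FPKM, −0.44 for ERF2i over GUSi, was −0.21 after division by TMM factors and −0.58 to −0.27 with 1 library left out; for ERF1i over GUSi, 0.00, it was −0.15 to 0.16. With a library left out its construct rests on 1 line, assumed to vary like the others; the cause of each change was not tested. With 2 lines for each construct, differences as small as that of CMK are near the limit of what the test calls.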
